A study of Mus musculus with 6 samples.

Results

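The 8 genes Sox9, Sox4, Epcam, Cd24a, Prom1, Cftr, Muc1 and Ehf, which mark biliary epithelium and liver progenitor cells, were picked by symbol from the 56305 genes of the RNA-Seq table, and each symbol matched 1 Ensembl gene of GRCm38. RNA-Seq was done on the livers of 3 Vps15LKO and 3 WT mice, with 1 library per liver. Vps15LKO mice are AlbCre+;Vps15f/f animals, in which Cre under the albumin promoter deletes Vps15, the regulatory subunit of class 3 PI3K, in cells that use this promoter. WT mice served as the controls, and whether they carried floxed alleles is not given in the sources used here. All were 5-week-old males, fed ad libitum and collected at zeitgeber time 6 (ZT6), that is 6 h after lights on.

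Bile ducts are lined by cholangiocytes, epithelial cells that arise from the same embryonic hepatoblasts as hepatocytes and that modify bile by secretion and uptake. They form a small part of the liver, and many of their genes are silent or low in hepatocytes. After long injury, ducts can expand and cells with both biliary and hepatocyte features can appear, which is why several of these genes also serve as progenitor markers.

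Values are normalized counts, that is read counts per gene divided by 1 DESeq2 size factor per library. The libraries held 16137093 to 18110223 reads on genes. The value of 1 read in normalized counts was 1.25 to 1.35 for WT livers and 0.707 to 0.810 for Vps15LKO livers. Pik3r4, the gene of Vps15, stood at 508, 573 and 459.7 in WT and at 341, 362 and 355 in Vps15LKO livers. Its log2 fold change was −0.54 (SE 0.11, limma adjusted p = 0.0021) but 0.19 under scaling to equal read totals, and the deleted exon was not counted apart from the rest. The test was limma on log2(normalized count + 1), a scale that understates changes of low genes, over all genes that reached 20 normalized counts in 3 or more of the 6 livers. Calls needed a Benjamini-Hochberg adjusted p below 0.05 together with a change of 1.2-fold or more.

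All 8 marker genes were higher in the livers of Vps15LKO mice, and in each of them the lowest Vps15LKO liver lay above the highest WT liver. Fold changes of the mean normalized count ran from 2.61 for Muc1 to 28.8 for Sox4, with Cftr higher still from a WT level of a few reads. Together the 8 genes took 229, 260 and 273 reads in the WT libraries and 6519, 4912 and 9945 reads in the Vps15LKO libraries, whose totals of reads were alike. The genotypes differ widely over the whole transcriptome, so these counts have a high background. Of 15430 genes tested, 33.5% were called higher and 33.0% lower, and 36.4% had no overlap with Vps15LKO above WT, against 36.8% with Vps15LKO below. A call with a fold of at least 2 was made for 20.9% of the tested genes. These shares describe the table and carry no test of the 8 genes as a set. In whole liver, more cells of a type and more RNA per cell cannot be told apart.

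**Figure D1:**
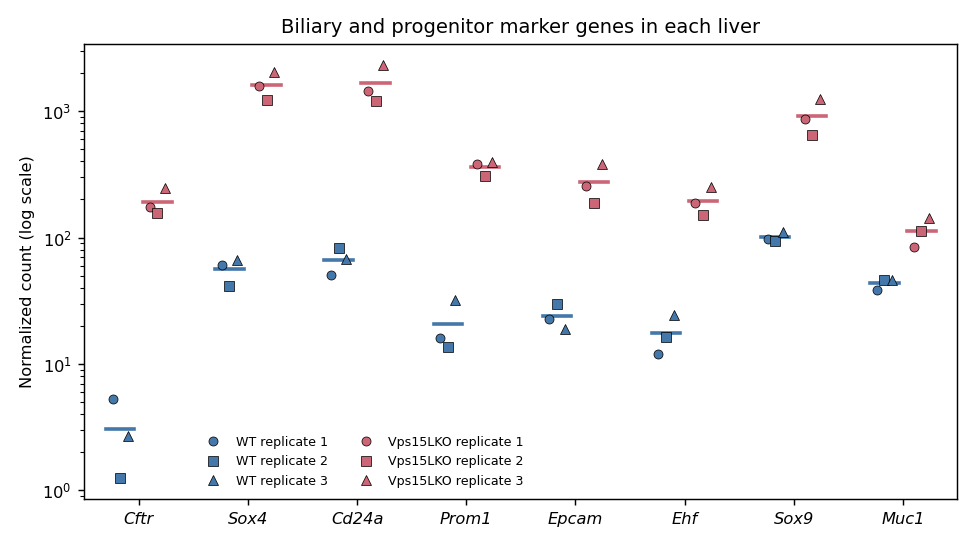
Normalized counts (log scale) of the 8 marker genes in each liver, with WT in blue, Vps15LKO in red, 1 symbol per replicate number and a bar at each group mean (n = 3 livers each). Every red symbol lies above every blue symbol of the same gene, with Cftr between 1.25 and 5.30 in WT and Muc1 showing the smallest gap.

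Among the transcription factors, Sox9, an HMG-box factor present in bile duct cells from the first embryonic duct plate onwards, stood at 98.1, 93.7 and 111 normalized counts in WT livers. In Vps15LKO livers it stood at 863, 644 and 1246. The WT livers lay close together and the Vps15LKO livers spread 1.93-fold, with the third highest. The mean rose from 101 ± 8.74 to 918 ± 305 (SD, n = 3 livers each), a log2 fold change of 3.13 (SE 0.22, 95% interval 2.63 to 3.62, limma adjusted p = 6.95e-06). Sox9 lies on chromosome 11 of GRCm38 from 112782224 to 112787760 on the plus strand.

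Sox4, a related factor that acts with Sox9 in the building of the ducts, had 61.0, 41.2 and 66.1 normalized counts in WT and 1579, 1226 and 2043 in Vps15LKO livers. It was the gene of the set with the largest fold between well-measured means, 28.8. Its log2 fold change was 4.82 (SE 0.22, 95% interval 4.31 to 5.33, limma adjusted p = 1.06e-06), and 161 tested genes had a larger one. Sox4 lies on chromosome 13 from 28948919 to 28953713 on the minus strand. The opposite strand holds the long non-coding gene Gm26735, which shares 2616 bp of exon with it, and the strand setting of the authors' counting is not given in the sources used here, so Sox4 values may include reads of that gene.

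Ehf, an Ets-family factor of epithelial cells, had 11.9, 16.2 and 24.3 normalized counts in WT and 187, 149.9 and 252 in Vps15LKO livers. Only 1 WT liver reached 20, so Ehf entered the test mainly through the Vps15LKO livers. The means were 17.5 ± 6.26 and 196 ± 51.6 (SD, n = 3), 11.2-fold apart, with a log2 fold change of 3.44 (SE 0.29, 95% interval 2.78 to 4.10, limma adjusted p = 1.77e-05). Ehf lies on chromosome 2 from 103263433 to 103303278 on the minus strand.

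Of the surface proteins, Epcam, an adhesion molecule that adult liver carries on duct cells and not on hepatocytes, had 22.5, 30.0 and 18.9 normalized counts in WT and 257, 187 and 381 in Vps15LKO livers. The third Vps15LKO liver held 2.04 times the level of the second. Means were 23.8 ± 5.66 and 275 ± 98.3 (SD, n = 3), and the log2 fold change was 3.44 (SE 0.28, 95% interval 2.81 to 4.07, limma adjusted p = 1.44e-05). Epcam lies on chromosome 17 from 87635979 to 87651129 on the plus strand, and 2 of the WT livers reached 20.

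Cd24a, a small membrane-anchored glycoprotein used to sort progenitor cells but also carried by some blood cells, had 50.4, 82.4 and 67.4 normalized counts in WT and 1448, 1194 and 2328 in Vps15LKO livers. It rose 24.8-fold, from a mean of 66.7 ± 16.0 to 1657 ± 595 (SD, n = 3), the highest mean of the set. The log2 fold change was 4.58 (SE 0.26, 95% interval 3.99 to 5.17, limma adjusted p = 2.49e-06). Cd24a lies on chromosome 10 from 43578284 to 43584265 on the plus strand.

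Prom1, a membrane protein of cell protrusions, had 15.9, 13.7 and 32.4 normalized counts in WT and 385, 309 and 395 in Vps15LKO livers. It varied least among the Vps15LKO livers, with a SD of 47.0 on a mean of 363, while its WT values, from 11 to 24 reads, had an SD of 10.2 on a mean of 20.7. Only 1 WT liver reached 20, so Prom1 entered the test mainly through the Vps15LKO livers. The fold of the means was 17.6 and the log2 fold change 4.16 (SE 0.30, 95% interval 3.48 to 4.83, limma adjusted p = 7.92e-06). Prom1 lies on chromosome 5 from 43993620 to 44102032 on the minus strand. Its antisense neighbour Gm16401 shares 424 bp of exon with it and had 0 counts in WT and 8.91 to 13.4 in Vps15LKO livers.

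Of the genes of duct function, Cftr, the chloride channel through which duct cells secrete fluid, was close to absent in WT libraries, with 4, 1 and 2 reads. The Vps15LKO libraries held 229, 194 and 346 reads, or 175, 157 and 245 normalized counts. No WT liver reached 20, so Cftr was tested only because the Vps15LKO livers were high, and for a gene chosen in that way a difference between genotypes was bound to appear. The summed reads, scaled by the size factors, gave a ratio of 63.8 (exact 95% interval 30.8 to 159, for counting error only), and the log2 fold change was 5.66 (SE 0.39, limma adjusted p = 6.77e-06). Cftr lies on chromosome 6 from 18170687 to 18322768 on the plus strand, where the antisense gene Gm15592 shares 129 bp of exon with it and had 0 counts in WT and 8.40 to 9.90 in Vps15LKO livers.

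Muc1, a membrane mucin of the cell surface that faces the lumen, stood apart from the other genes of the set by its small change. It had 38.5, 46.2 and 45.8 normalized counts in WT and 84.8, 113 and 144 in Vps15LKO livers. The groups did not overlap, but the lowest Vps15LKO liver was less far above WT than for any other gene of the set. Its log2 fold change was 1.34 (SE 0.22, 95% interval 0.84 to 1.83, limma adjusted p = 0.000636), an interval wholly below that of each of the other 7 genes, and 2637 tested genes had a larger change. Muc1 lies on chromosome 3 from 89229057 to 89233381 on the plus strand.

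Of the 8 genes, Sox9, Sox4, Cd24a and Muc1, reached 20 normalized counts in every liver, so their place in the test did not depend on the Vps15LKO livers. All 4 were called higher also among the genes that met this stricter rule, of which 27.9% were called higher. The other 4 could not be tested under it, since 1 to 3 WT livers were below 20 for each.

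The promoters of the gene of largest well-measured change, of the gene nearly silent in WT liver and of the gene of smallest change are given here as the 250 bases before the transcript start in RefSeq (GRCm38.p6), each read 5′ to 3′ on the strand of its gene. Capitals mark matches, on either strand, to 5 letter strings searched. These were the E-box of Bmal1–Clock (CACGTG), the Rbpj motif of Notch signalling (GTGGGAA), the TEAD motif (GGAATG), the AP-1 motif (TGACTCA) and the TATA box (TATAAA).
Sox4 promoter, chr13:28953700-28953949, minus strand: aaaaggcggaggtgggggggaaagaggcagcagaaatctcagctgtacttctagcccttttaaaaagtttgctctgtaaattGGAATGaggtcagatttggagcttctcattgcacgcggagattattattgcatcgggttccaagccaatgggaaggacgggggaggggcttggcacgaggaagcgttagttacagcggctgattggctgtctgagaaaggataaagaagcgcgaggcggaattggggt
Cftr promoter, chr6:18170437-18170686, plus strand: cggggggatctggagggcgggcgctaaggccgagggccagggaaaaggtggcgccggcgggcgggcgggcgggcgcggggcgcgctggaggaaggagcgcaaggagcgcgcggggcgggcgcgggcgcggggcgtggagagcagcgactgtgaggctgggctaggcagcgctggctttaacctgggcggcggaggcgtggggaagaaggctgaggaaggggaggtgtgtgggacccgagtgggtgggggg
Muc1 promoter, chr3:89228806-89229055, plus strand: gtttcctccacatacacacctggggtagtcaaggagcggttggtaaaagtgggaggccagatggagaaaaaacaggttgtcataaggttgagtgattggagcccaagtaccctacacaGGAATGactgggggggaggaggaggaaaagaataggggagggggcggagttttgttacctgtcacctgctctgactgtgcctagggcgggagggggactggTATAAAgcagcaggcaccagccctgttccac
The Sox4 window holds the TEAD letters from position −168 relative to the transcript start, and its last bases overlap the Sox4 exon of GENCODE. The Muc1 window holds the TEAD letters from position −132 and the TATA box from position −31. In the Cftr window none of the 5 strings was found, and its GC content was 76.4%, against 50.8% for Sox4, 54.8% for Muc1 and a median of 52.4% over all windows. RefSeq windows were at hand for 5 of the 8 genes. That of Epcam held none of the strings, and 1 of the 2 windows of Prom1 held the AP-1 letters from position −88. No window of these 5 genes held the E-box or the Rbpj letters. Over all 32851 windows, 12.6% held the TEAD letters, 12.4% the TATA box, 6.02% the E-box, 5.42% the Rbpj letters and 4.46% the AP-1 letters. A match describes the letters and is neither a bound site nor a cause of the changes above.

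Levels between genes were compared per kb of exon. In WT livers Cd24a stood highest with 25.9 ± 6.22 normalized counts per kb (SD, n = 3), followed by Sox9 with 24.4 ± 2.11, Muc1 with 18.5 ± 1.87, Sox4 with 11.7 ± 2.74 and Epcam with 10.8 ± 2.58. Ehf (3.13 ± 1.12), Prom1 (2.88 ± 1.42) and Cftr (0.397 ± 0.265 normalized counts per kb) were lowest. Cd24a overlapped between livers with Sox9 and with Muc1, Sox4 with Epcam, and Ehf with Prom1, so the order within each of these pairs is not set. In Vps15LKO livers Cd24a again stood highest with 642 ± 231 normalized counts per kb, now above Sox4 with 337 ± 85.5, Sox9 with 222 ± 73.7 and Epcam with 125 ± 44.8. The other genes followed with 50.6 ± 6.56 for Prom1, 48.4 ± 12.5 for Muc1, 35.2 ± 9.25 for Ehf and 24.8 ± 5.96 for Cftr. Among these neighbours, Cd24a above Sox4 and Epcam above Prom1 were separate in all livers, and the others overlapped. Muc1 thus went from above Sox4 and Epcam in each WT liver to below both in each Vps15LKO liver. Placed among all tested genes by level per kb, Sox4 went from the 16.9th percentile in WT to the 85.6th in Vps15LKO liver, Cd24a from 28.8 to 92.3, and Cftr from 0.772 to 22.3.

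The Vps15LKO livers differed among themselves in a shared way. Replicate 3 was highest and replicate 2 lowest for 7 of the 8 genes, with Muc1 the exception, as its lowest liver was replicate 1. The ratio of replicate 3 to replicate 2 ran from 1.28 for Prom1 to 2.04 for Epcam among these 7. The same order was found for 11 of 14 other biliary markers and for 36.0% of the genes called higher, against 20.1% of all tested genes. Hepatocyte markers ran the other way, with replicate 2 highest and replicate 3 lowest for 15 of 15, an order held by 28.3% of all tested genes. With 3 livers this is a description of these animals, and its part in the genotype difference was not tested beyond leaving out each liver. Without replicate 3 the log2 fold change of Sox9 was 2.88 and that of Cd24a 4.31, the lowest values for these genes over the livers left out, and both calls held.

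**Figure D2:**
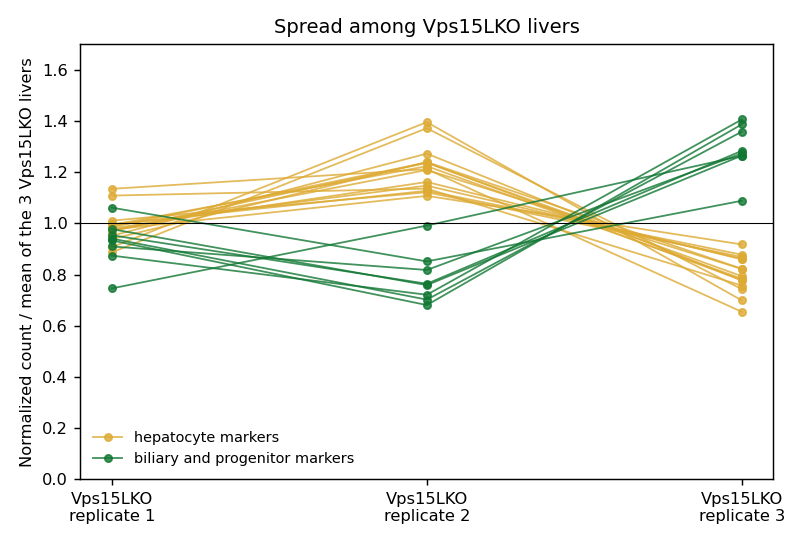
Normalized count of each gene in the 3 Vps15LKO livers divided by its mean over these livers, for the 8 marker genes (green) and 15 hepatocyte markers (yellow). In replicate 3 all green points lie above 1 and all yellow points below 1, and the genes shown share libraries, so the lines are not independent.

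Other biliary epithelial markers were examined beside the 8 genes. Of the 14 reported here, 14 could be tested and were called higher, but only 7 of them reached 20 normalized counts in every liver, and the others passed the filter wholly or partly through the Vps15LKO livers. The median log2 fold change was 3.26 for these 7 and 3.85 for the 4 of the 8 genes that reached 20 in every liver, where 27.9% of all genes were called higher. Cldn4, a tight junction claudin, changed most, from 0, 1 and 3 reads in the WT libraries, with a ratio of scaled reads of 332 (exact 95% interval 129.5 to 1219, for counting error only). It passed the filter only through the Vps15LKO livers. Spp1, the secreted protein osteopontin and the most abundant of the list, rose from 562, 493 and 599 to 13401, 10402 and 20496 normalized counts, a log2 fold change of 4.69 (SE 0.22, limma adjusted p = 1.16e-06).

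The defining duct keratins had smaller log2 fold changes than 7 of the 8 genes, Muc1 being the exception. Krt7 had 23.9, 17.5 and 18.9 normalized counts in WT and 88.6, 74.6 and 135 in Vps15LKO livers, a 4.95-fold rise of the mean (log2 fold change 2.22, SE 0.26, limma adjusted p = 0.000105). Krt19 rose 4.38-fold, from 23.9, 27.5 and 40.4 to 118, 118 and 166 normalized counts (log2 fold change 2.11, SE 0.24, limma adjusted p = 9.14e-05).

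**Figure D3:**
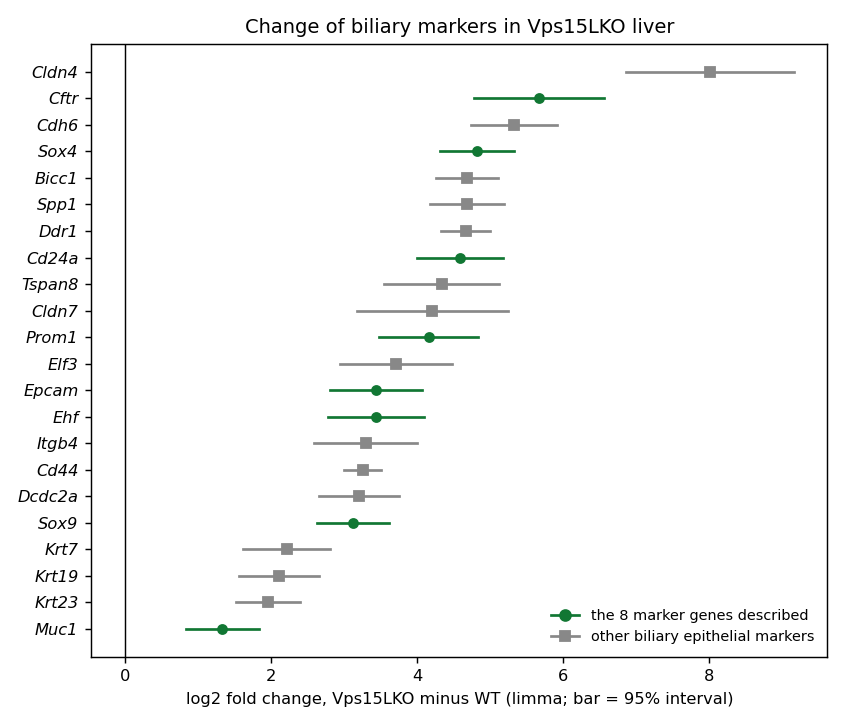
Log2 fold change (Vps15LKO minus WT, limma) of the 8 marker genes (green circles) and 14 other biliary epithelial markers (grey squares), with 95% intervals. Cldn4 and Cftr lie furthest right and rest on few WT reads, while Muc1 lies nearest 0.

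Ratios within each library do not depend on the scaling between libraries, and were added after the data were seen. Relative to Krt19 in reads per kb of exon, 7 of the 8 genes were higher in every Vps15LKO library than in any WT library, as were 5.69% of all tested genes, and 83.3% of all tested genes were lower in this sense. Cftr had passed the filter only, and Epcam, Prom1 and Ehf partly, through the Vps15LKO livers. Their part in this count, and in that for Krt7, was thus favoured by the filter. Sox4 stood at 0.989, 0.580 and 0.632 times Krt19 in WT and at 5.16, 4.04 and 4.76 times in Vps15LKO libraries. Cd24a went from 1.52, 2.16 and 1.198 to 8.79, 7.31 and 10.1 times Krt19. For Sox9 the step was smaller, from 1.84, 1.53 and 1.23 to 3.27, 2.46 and 3.36. Muc1 went the other way, from 1.27, 1.33 and 0.896 to 0.566, 0.758 and 0.683 times Krt19. Relative to Krt7 the picture was the same, with 7 genes higher (4.6% of all tested genes) and Muc1 lower (84.3%), from 4.84, 7.94 and 7.30 to 2.88, 4.54 and 3.19. The WT ratios rest on few Krt19 and Krt7 reads, so each is imprecise. The rises of the 8 genes were thus unequal among themselves and unequal to those of the keratins.

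**Figure D4:**
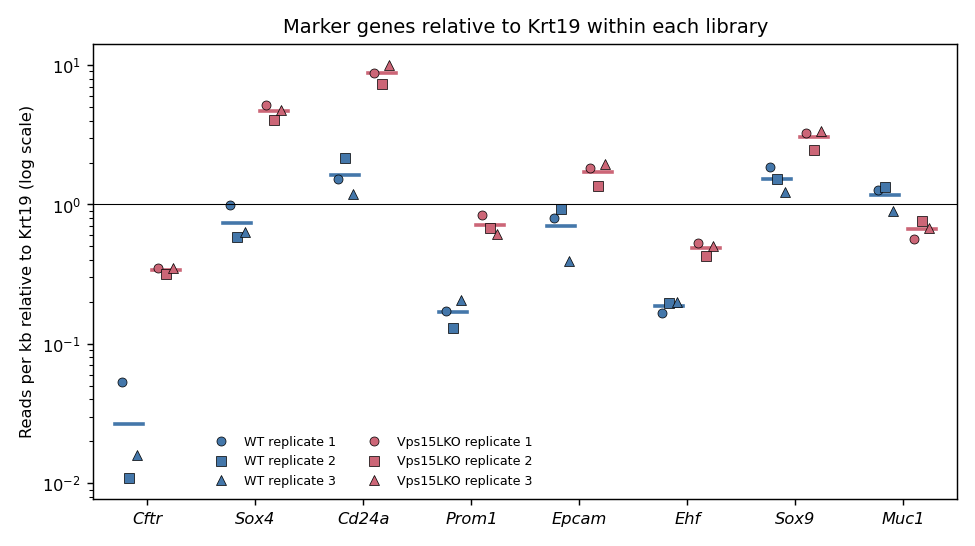
Reads per kb of exon of each marker gene divided by those of Krt19 in the same library (log scale), with WT in blue, Vps15LKO in red and a bar at each group mean. Red lies above blue for 7 genes and below it for Muc1, and the line marks a ratio of 1.

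Genes that serve duct transport, receptors and the cilium were called in both directions. Of 16, 14 were tested, with 8 called higher and 1 lower, against 33.5% and 33.0% of all tested genes. Of the 10 that reached 20 normalized counts in every liver, 4 were called higher and 1 lower, with a median log2 fold change of 0.25, against 27.9% and 36.2% of all genes at that level. With equal read totals, which call 66.7% of all tested genes higher, 13 of the 14 were higher and 0 lower. Ggt1, which splits glutathione at the duct surface, changed most, with a single read in the 3 WT libraries and 25.9 to 41.2 normalized counts in Vps15LKO livers. It passed the filter only through the Vps15LKO livers, so its call upwards was set by the filter. The only call downwards was that of Slc10a2, the apical bile acid transporter, whose groups overlapped at 117 to 183 against 87.8 to 119 normalized counts. Its log2 fold change was −0.67 (limma adjusted p = 0.0193), and it was 0.047 under scaling to equal read totals and lost its call when WT replicate 1 or 2 or Vps15LKO replicate 1 or 3 was left out (−0.56 without WT replicate 1). Aqp1, a water channel of duct and vessel cells and the most abundant of the list, was not called (log2 fold change −0.10, limma adjusted p = 0.324), but was called higher with equal read totals (0.63) and with quantile normalization (0.39).

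In the list of signals that specify ducts, 13 of 19 Notch, Hippo and TGF-beta genes were called higher and 2, Yap1 and Onecut2, lower, against 33.5% and 33.0% of all tested genes. Of the 15 that reached 20 normalized counts in every liver, 9 were called higher and 2 lower, with a median log2 fold change of 1.01, against 27.9% higher and 36.2% lower over all genes at that level. With equal read totals 17 of the 19 were higher and 0 lower, against 66.7% and 11.1% of all tested genes. Yap1, the Hippo effector, had a log2 fold change of −0.31 (limma adjusted p = 0.0125), but was called higher with equal read totals (0.41) and was not called with quantile normalization (−0.053) or without WT replicate 2 (−0.25) or Vps15LKO replicate 1 (−0.30). Ankrd1, a Hippo target gene, had 3, 1 and 3 reads in the WT libraries and a ratio of scaled reads of 150.6 (exact 95% interval 73.0 to 375, for counting error only). Ankrd1 passed the filter only through the Vps15LKO livers, so a difference between genotypes was bound to appear. Tgfbr2, a receptor for TGF-beta, rose from 391, 535 and 488 to 3225, 2920 and 3394 normalized counts (log2 fold change 2.76, SE 0.13, limma adjusted p = 1.05e-06). Onecut2, a factor that acts early in hepatoblasts, fell by 0.65 on the log2 scale (limma adjusted p = 0.0017), but stood at 0.074 under scaling to equal read totals and lost its call with quantile normalization (−0.29).

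Hepatoblast and fetal liver genes were examined because progenitor cells share some of them. Of 9, 6 were tested, with 4 called higher and 2 lower, against 33.5% higher and 33.0% lower over all tested genes. With equal read totals 1 was called lower, against 11.1% of all tested genes. Of the 5 that reached 20 normalized counts in every liver, 3 were called higher and 2 lower, against 27.9% and 36.2% of all genes at that level. Afp, the fetal counterpart of albumin, rose from 30.5, 31.2 and 63.4 to 12302, 8297 and 15643 normalized counts, with the same order of the 3 Vps15LKO livers as most of the 8 genes (log2 fold change 8.18, SE 0.31, limma adjusted p = 4.17e-07). Tbx3, a T-box factor of hepatoblasts, fell by 1.49 on the log2 scale (SE 0.29, limma adjusted p = 0.0017). Lin28b was at 0 in all livers, and Dlk1 and Igf2bp1 were below the filter.

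Relatives of the 8 genes were called in both directions. Of 17 other Sox genes, 7 were tested, 2 of them called higher and 3 lower, against 33.5% and 33.0% of all tested genes. With equal read totals 4 were called higher and 1 lower, against 66.7% and 11.1% of all tested genes, and with quantile normalization 0 higher and 3 lower. Log2 fold changes lay between −1.16 for Sox6 and 0.72 for Sox17, and Sox17 lost its call with quantile normalization (0.10). It also lost it without WT replicate 2 (0.67), WT replicate 3 (0.57) or Vps15LKO replicate 3 (0.61), and without WT replicate 2 or Vps15LKO replicate 3 the list had 0 Sox genes called higher and 2 lower in limma. Among 6 genes of the Elf group and Spdef, which are Ets factors like Ehf, 4 were tested and 2 were called higher (1 of the 3 that reached 20 normalized counts in every liver), Elf3 by 3.71 on the log2 scale (limma adjusted p = 2.55e-05). Elf1 was not called (0.23), though it was higher with equal read totals (0.96), quantile normalization (0.32) and the tests on recovered reads of edgeR and voom (0.27 each). Of 12 other mucin genes, only 2 passed the filter. Muc13 was higher from 1 read in the WT libraries, but passed the filter only through the Vps15LKO livers, so its call was set by the filter. Muc16 fell by 1.21 on the log2 scale (limma adjusted p = 0.006), a call lost with equal read totals (−0.53). Prom2, the relative of Prom1, was below the filter, with at most 4.95 normalized counts.

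**Figure D5:**
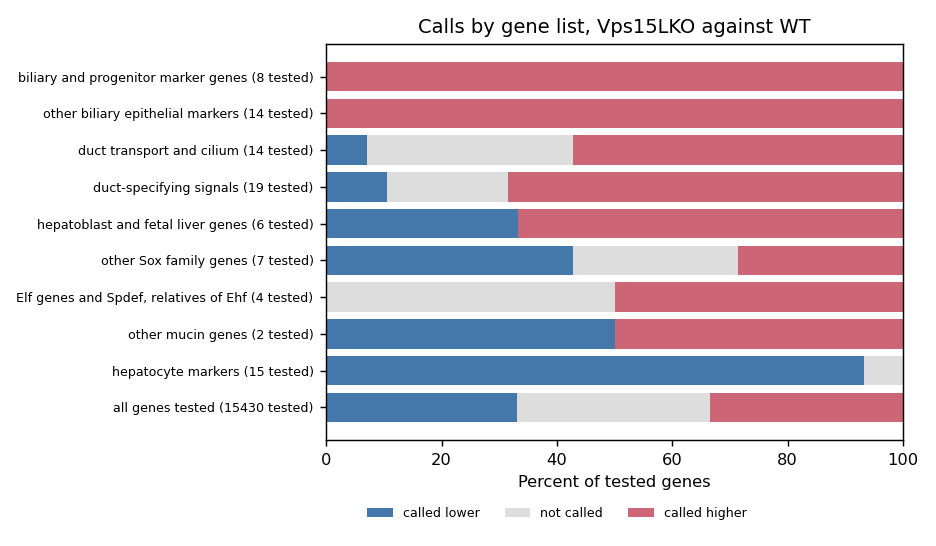
Percent of the tested genes of each list called lower (blue), not called (grey) or called higher (red) in Vps15LKO liver by limma. The 8 marker genes and 14 other biliary markers are wholly red, several of them tested only because of their Vps15LKO level, and hepatocyte markers are blue but for 1 gene, against 33.5% red and 33.0% blue for all tested genes.

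Markers of the other cell types of a liver sample moved between the genotypes too. Of 15 hepatocyte markers, 14 were called lower by limma, against 33.0% of all tested genes, with a median log2 fold change of −1.86. With equal read totals 13 were called lower, against 11.1% of all tested genes, with a median of −1.13. With quantile normalization 10 were called lower, with a median of −0.65, where 5801 of the 15430 tested genes were called lower. Cyp2e1 fell most (−3.47, limma adjusted p = 2.28e-05). Albumin itself, with the most reads of the list, had a log2 fold change of −1.48 and was not called by limma with a trend (adjusted p = 0.366), but was called lower by limma without a trend and by edgeR, DESeq2 and voom on recovered reads. The fall of albumin was −0.76 with equal read totals and vanished with quantile normalization, with no call under either. All 7 stellate cell markers were called higher under each scaling tried, against 33.5% of all tested genes, or 66.7% with equal read totals. The count was 6 without WT replicate 3, Vps15LKO replicate 1 or Vps15LKO replicate 2. The summed level of the 7 was 2360 to 2784 in WT livers and 10642 to 12973 in Vps15LKO livers. Of 6 macrophage markers, 5 were called higher, against 33.5% of all tested genes, with sums of 6111 to 6758 and 14824 to 19818. Neutrophil markers summed to 10.8 to 18.6 in WT livers and to 233 to 406 in Vps15LKO livers, and the 3 that could be tested reached 20 normalized counts in no WT liver, so their calls upwards were set by the filter. For B lymphocyte markers the sums were 80.9 to 136 and 274 to 321. Of 3 tested, 2 were called higher, against 33.5% of all tested genes (1 higher and 1 lower with quantile normalization). Only 1 of the B lymphocyte genes reached 20 normalized counts in every liver, and Ms4a1 stayed below the filter. Of 7 endothelial markers, 3 were called higher and 4 lower, against 33.5% and 33.0% of all tested genes. With equal read totals 4 were called higher and 0 lower, against 66.7% and 11.1% of all tested genes. The 4 lower calls were 2 when any of the WT replicates or Vps15LKO replicate 1 or 3 was left out, and also 2 with TMM scaling, quantile normalization, limma without a trend and edgeR. Of 6 erythroid markers tested, 2 were called lower and 0 higher, against 33.0% and 33.5% of all tested genes. With equal read totals 4 others were called higher, against 66.7% of all tested genes, with quantile normalization 3 and with a replicate block 2. Without WT replicate 3 or Vps15LKO replicate 2, 1 was called higher.

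Epithelia from outside the liver were checked as well, since several of the 8 genes are also made in pancreas and gut. Of the pancreatic acinar markers, Cpa1, Cpb1 and Pnlip were at 0 in all livers, and the 8 markers summed to 38.7 to 71.4 in WT livers and to 17.7 to 43.8 in Vps15LKO livers. The 1 acinar gene that could be tested, Cela2a, was called lower, a call lost with equal read totals and without WT replicate 3 or Vps15LKO replicate 3. Of the intestinal markers, Cdx2 and Sis were at 0 in all livers. Of 3 tested, 1 was called higher and 1 lower, with 2 lower under quantile normalization and 0 lower with equal read totals. The call upwards was that of Vil1, which lay under 20 normalized counts in all WT livers, and the list had sums of 608 to 727 in WT and 343 to 449 in Vps15LKO livers. Mesothelial markers summed to 182 to 212 and 142 to 221 normalized counts, and the 3 that could be tested were not called by limma. With equal read totals 1 was called higher, and with quantile normalization 2 were called lower. Upper-quartile scaling, or leaving out Vps15LKO replicate 2, gave 1 called lower. The part of the stellate, macrophage, neutrophil and B lymphocyte markers in the rise of the 8 genes was not tested.

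The genes whose pattern over the 6 livers came closest to the median pattern of the 8 were Gpc3, Cx3cl1, Tgfb2, Tmsb10 and B4galt6. The measure was the root mean square distance between log2 profiles, each centred on its own mean, and it was 0.0869 for Gpc3, 0.103 for Cx3cl1, 0.112 for Tgfb2, 0.1199 for Tmsb10 and 0.125 for B4galt6. The 8 genes themselves lay at 0.258 for Ehf to 1.26 for Muc1 from their own median. Gpc3, a cell-surface proteoglycan of fetal liver, had 41.1, 52.5 and 49.9 normalized counts in WT and 719, 549 and 949 in Vps15LKO livers. Tmsb10, which binds actin, showed the pattern at a much higher level, with 389, 393 and 391 against 5608, 4355 and 7139 normalized counts. The distance is a description over 6 libraries and, given the size of the genotype difference, mostly measures the size of the change.

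Other scalings left the direction of all 8 genes as it was. Scaling to equal read totals moved the median over all tested genes up by 0.72 on the log2 scale, and with it Muc1 stood at 2.05 and Sox4 at 5.54. Quantile normalization gave the lowest value for Muc1, 0.81. Over all alternatives in which a gene could be tested, each of the 8 kept its call in limma, edgeR or DESeq2. For Cftr, and in part for Epcam, Prom1 and Ehf, the call was favoured by the filter from the start. With 3 livers against 3, an exact permutation test of a single gene cannot give a p below 0.1, so the calls rest on the fit across all genes.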

How the data were processed

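The sequencing notes of the study and the labels name SOAPnuke for read filtering, HISAT2 for mapping to GRCm38, featureCounts for counting and DESeq2 for normalization. Tool versions, annotation release and strand setting are not given in the sources used here. The deposited values are a signal made by the authors, the reads of each gene divided by a size factor of its library, for 56305 genes. Dividing each column by its smallest nonzero value gave whole numbers for 100% of its values, which recovered the reads. Symbols and coordinates came from GENCODE M21 (55227 genes matched), promoters from RefSeq.

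Group labels and replicate numbers came from the sample titles. The normalized counts were compared with limma 3.58.1 in R 4.3.3 (lmFit, eBayes with a trend, pseudocount 1), without a replicate block, and p was adjusted with Benjamini-Hochberg over all 15430 genes that passed the filter. The fit was first tested on simulated data. The 8 genes and the comparison lists were chosen with earlier results of these data known. A few genes of the lists are not reported here, and the counts, medians and sums of the biliary and B lymphocyte lists leave them out. By the rule, named genes are the 8, Pik3r4, Krt7 and Krt19, the 5 genes of closest profile and, from each list, the largest rise and fall among called genes and the gene of highest mean. Not all of the latter are named in the text, and most lists of other cell types are given by counts and sums alone. Markers at 0 or under the filter, the antisense neighbours, Prom2 and Yap1 were named after their values were seen. Ratios to Krt19 and Krt7 and the read-ratio intervals were also added then. As alternatives, the pseudocount was set to 0.1 or 10, the filter was dropped or made stricter, libraries were scaled in 4 other ways, the trend was left out of limma, and the recovered reads were tested with DESeq2 1.42.0, voom and edgeR 4.0.16. A fold of 2, each liver left out and a replicate block were tried too. On the recovered reads, edgeR called 5383 genes higher and 4822 lower.

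Replicates of a genotype differed by 14.6 to 40.8 in chi-square per gene, far above sampling noise. Each replicate is a separate mouse. No count interval is given where the spread between livers includes it. Python 3.11.15, pandas 2.3.3 and matplotlib 3.10.9 were used for tables and plots.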

Additional observations from a re-analysis of the deposited data

How the results depend on the processing

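All 148 log2 fold changes of the 8 genes under the 19 alternatives kept their direction and call. For Cftr this was set in advance by the filter, and in part for Epcam, Prom1 and Ehf, so these genes add little to that count. Epcam, Prom1, Cftr and Ehf could not be tested with a minimum of 20 normalized counts in every liver, which left 4 of the 8 genes, 7 of the other biliary markers and 4 of the transport genes called higher because fewer genes were tested. The log2 fold changes of the 8 genes ran from 2.88 to 3.85 for Sox9, 4.61 to 5.54 for Sox4, 3.00 to 4.15 for Epcam, 4.31 to 5.30 for Cd24a, 3.64 to 4.86 for Prom1, 3.94 to 6.28 for Cftr, 0.81 to 2.05 for Muc1 and 2.84 to 4.14 for Ehf, each highest with equal read totals, which raise all genes in Vps15LKO libraries.

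With equal read totals, 10299 of all tested genes were called higher and 1712 lower. A fold of at least 2 left 3228 higher and 1957 lower. With equal read totals, 13 transport genes were called higher and 0 lower, 0 signal genes lower and 1 hepatoblast gene lower, and Slc10a2 stood at 0.047, Onecut2 at 0.074, Yap1 at 0.41 and Pik3r4 at 0.19 on the log2 scale. Quantile normalization gave 2 transport genes and 1 signal gene called lower. With each liver left out in turn, 0 to 1 transport genes and 1 to 3 signal genes were called lower, the latter with 1 without Vps15LKO replicate 1. The cause of these shifts was not tested.

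Same-numbered WT and Vps15LKO livers did not deviate together (correlations of −0.01, −0.01 and 0.05 over genes), so the numbers do not pair the mice. With the replicate number as a block, limma called 5065 genes higher and 4983 lower, and all 8 genes kept their calls.

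Depth limits the WT values of the genes with few reads, with 4, 1 and 2 reads for Cftr and 9 to 18 for Ehf, and groups of 3 livers were not tested for a liver that stands apart.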
